A study of Mus musculus with 13 samples.

Results

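The genes described here are 37 genes of oxidative protein folding and the unfolded protein response of the endoplasmic reticulum (ER), followed across 13 RNA-seq libraries of sorted mouse islet cells. They were taken by name from a count table of 55421 genes, each name was found once, and all 37 passed the filter on low counts in every comparison. By role they are 2 oxidases, 8 disulfide isomerases and related thioredoxin-fold proteins, 8 chaperones and their partners, 5 J-domain co-chaperones, 8 genes of ER-associated degradation, 3 sensors or regulators and 3 genes of the protein translocon.

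In the ER, oxidases of the ERO1 family pass oxidising equivalents to protein disulfide isomerases, which place disulfide bonds in secreted proteins such as proinsulin. Chaperones of the BiP system and the calnexin and calreticulin system hold folding intermediates, and proteins that fail to fold are returned to the cytosol for degradation. When unfolded proteins accumulate, the sensors IRE1 (Ern1), ATF6 and PERK raise the transcription of these genes, in part through XBP1, and beta cells are known for a heavy load on this system because of their insulin output.

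The study compared beta cells and other islet cells of mice with and without floxed Txnrd1, the gene of the cytosolic thioredoxin reductase. Control mice were Txnrd1.+/+ and the knockout-labelled mice were Txnrd1.fl/fl. All mice also carried Ins1.Cre/+, in which Cre is driven from the insulin 1 locus, and 2 copies of the Rosa26.mTmG reporter, which turns from membrane Tomato to membrane GFP where Cre has acted. All were C57BL/6 animals of 10 to 20 weeks, and the islets stood overnight in medium with 5.5 mM glucose before beta cells, which carry GFP, and non-beta cells, which carry Tomato, were sorted. There were 4 control beta, 3 knockout-labelled beta, 3 control non-beta and 3 knockout-labelled non-beta libraries. The non-beta fraction holds cells that Cre did not recombine, so the floxed gene is not deleted there by design. The labels do not say that the replicates of a group are separate mice, so p-values measure only the spread between these samples.

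Library totals ran from 28.7 to 36.8 M counts. Hormone transcripts fitted the sort: Ins2 took 13.6 to 22.6 % of counts in beta libraries and Gcg 15.7 to 19.9 % in non-beta libraries. Knockout-labelled beta replicate 3 held more RNA of other islet cells than the rest, with a summed level of 8 alpha-cell markers of 3737 CPM (read counts relative to the TMM-scaled library size) against 544.0 to 910.4 in the other 6 beta libraries. Knockout-labelled non-beta replicate 3 held more beta-cell RNA, with Ins2 at 2.46 % of counts whereas the 5 remaining non-beta libraries held 0.159 to 0.689 %. Txnrd1 itself went against the label: it rose by 1.00 on the log2 scale in knockout-labelled beta cells (edgeR quasi-likelihood test, adjusted p = 2.22e-05). Whole-gene counts do not check the deletion of part of a gene, so the groups are named by label throughout. The 5 sums of delta, PP, endothelial, leukocyte and stellate markers were each lower in every beta library than in every non-beta library. Of 5 leukocyte markers, the sum was 54.8 to 79.1 CPM in control beta and 39.8 to 52.9 CPM in knockout-labelled beta libraries, most of it Cd68, with Ptprc at or below 0.26 CPM. Of 4 plasma cell markers, the sum was 31.0 to 33.2 CPM in control beta, 23.2 to 27.8 CPM in knockout-labelled beta and 22.2 to 35.0 CPM in non-beta libraries. In beta libraries most of it was Derl3, itself a member here, and Jchain and Mzb1 stayed at or below 0.292 CPM. The part of these cell types in the results was not tested, and no marker list had a member at 0 in all libraries of a fraction. Of the 5 ductal markers, the sum was 899.7 to 968.6 CPM in control beta and 1359.7 to 1635.1 CPM in knockout-labelled beta libraries, nearly all of it Krt7, while Sox9 stayed at or below 0.41 CPM and Cftr at or below 0.026 CPM. In bulk samples, fewer cells of a type and less RNA per cell cannot be told apart.

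Some of these genes hold a sequence in their promoters that the unfolded protein response is known to read. The ER stress response element, ERSE, reads CCAAT, then 9 bases of any kind, then CCACG, and is known to be bound by NF-Y together with ATF6 or XBP1. RefSeq promoter windows of GRCm38.p6, from 250 bases before to 50 bases after the start, were matched for 32 members and searched on both strands. Hyou1, Manf, Derl1, Atf6 and Sec61a1 had no entry. An exact ERSE stood in the windows of 10 members, 31.2 % of the 32, against 37 of 27025 genes with a window, 0.137 %. The related ERSE-II, which reads ATTGG, 1 base of any kind and CCACG, stood in 2 members, Herpud1 and Dnajb11, 6.25 % against 0.0444 % of all genes. The short XBP1-type element TGACGTGG stood in Txndc5 and Txndc11, 6.25 % against 0.714 %. A match describes letters in a window and does not show that a factor binds there, and some of these genes served to define the element.

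The elements of the 10 members with an ERSE and the ERSE-II of Herpud1 are printed. An exact ERSE stood in 31.2 % of the searched members, so most of them lack it. Each stretch reads 5′ to 3′ on the gene's strand, the capitals mark the whole element, and an element on the opposite strand opens with CGTGG and closes with ATTGG. Of the 2 elements of Hsp90b1, the one nearer to the start is given.
Ero1lb (chr13:12565662-12565720, plus strand): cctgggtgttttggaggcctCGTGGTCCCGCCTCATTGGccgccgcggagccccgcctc
Pdia6 (chr12:17266471-17266529, plus strand): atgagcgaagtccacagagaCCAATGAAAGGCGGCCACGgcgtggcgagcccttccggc
Hspa5 (chr2:34772005-34772063, plus strand): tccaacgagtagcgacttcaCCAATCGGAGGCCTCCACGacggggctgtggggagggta
Hsp90b1 (chr10:86705513-86705571, minus strand): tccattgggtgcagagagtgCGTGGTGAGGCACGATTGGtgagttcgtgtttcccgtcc
Calr (chr8:84847055-84847113, minus strand): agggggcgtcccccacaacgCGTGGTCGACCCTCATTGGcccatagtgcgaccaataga
Canx (chr11:50325780-50325838, minus strand): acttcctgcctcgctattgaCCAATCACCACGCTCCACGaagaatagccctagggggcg
Creld2 (chr15:88819500-88819558, plus strand): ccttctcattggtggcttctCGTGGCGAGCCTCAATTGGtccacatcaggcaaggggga
Dnajc3 (chr14:118937807-118937865, plus strand): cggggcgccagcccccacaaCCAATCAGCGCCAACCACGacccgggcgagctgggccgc
Syvn1 (chr19:6046512-6046570, plus strand): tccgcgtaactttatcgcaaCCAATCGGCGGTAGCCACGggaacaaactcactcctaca
Derl3 (chr10:75893222-75893280, plus strand): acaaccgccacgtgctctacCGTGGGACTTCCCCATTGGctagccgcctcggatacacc
Herpud1 (chr8:94386357-94386407, plus strand): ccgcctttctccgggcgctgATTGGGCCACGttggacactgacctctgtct

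The first comparison asks how these genes differed between beta cells with and without the knockout label. The group was lower in knockout-labelled beta cells: 20 of 37 members fell, 3 rose and 14 were not called at an adjusted p of 0.05 over 17525 tested genes. That is 54.1 % of members lower, against 9.97 % of all tested genes called lower and 10.1 % called higher, or 20.1 % in either direction. The median log2 fold change of the members was -0.28, beside 0.01 over all tested genes. The 3 knockout-labelled libraries all lay below the 4 control libraries for 22 members, 59.5 %, against 15.8 % of all tested genes, and all lay above for 2 members, 5.41 %, against 14.5 %. Together the members took 2.45 to 2.50 % of all counts in control beta libraries and 1.97 to 2.15 % in knockout-labelled ones. Without replicate 3 of the knockout-labelled group, the library with more alpha-cell RNA, 21 of the 23 calls held, and those of Hsp90b1 and Ssr1 ended. In a fit that took its spread from all 13 libraries, 11 members were called lower and 1 higher. The calls of 11 members held under all 16 alternatives, and those of Txndc12, Hsp90b1, Dnajc1, Sel1l, Derl1 and Ssr1 depended on single libraries. All of the latter except that of Txndc12 also ended in the fit of all 13 libraries.

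**Figure D1:**
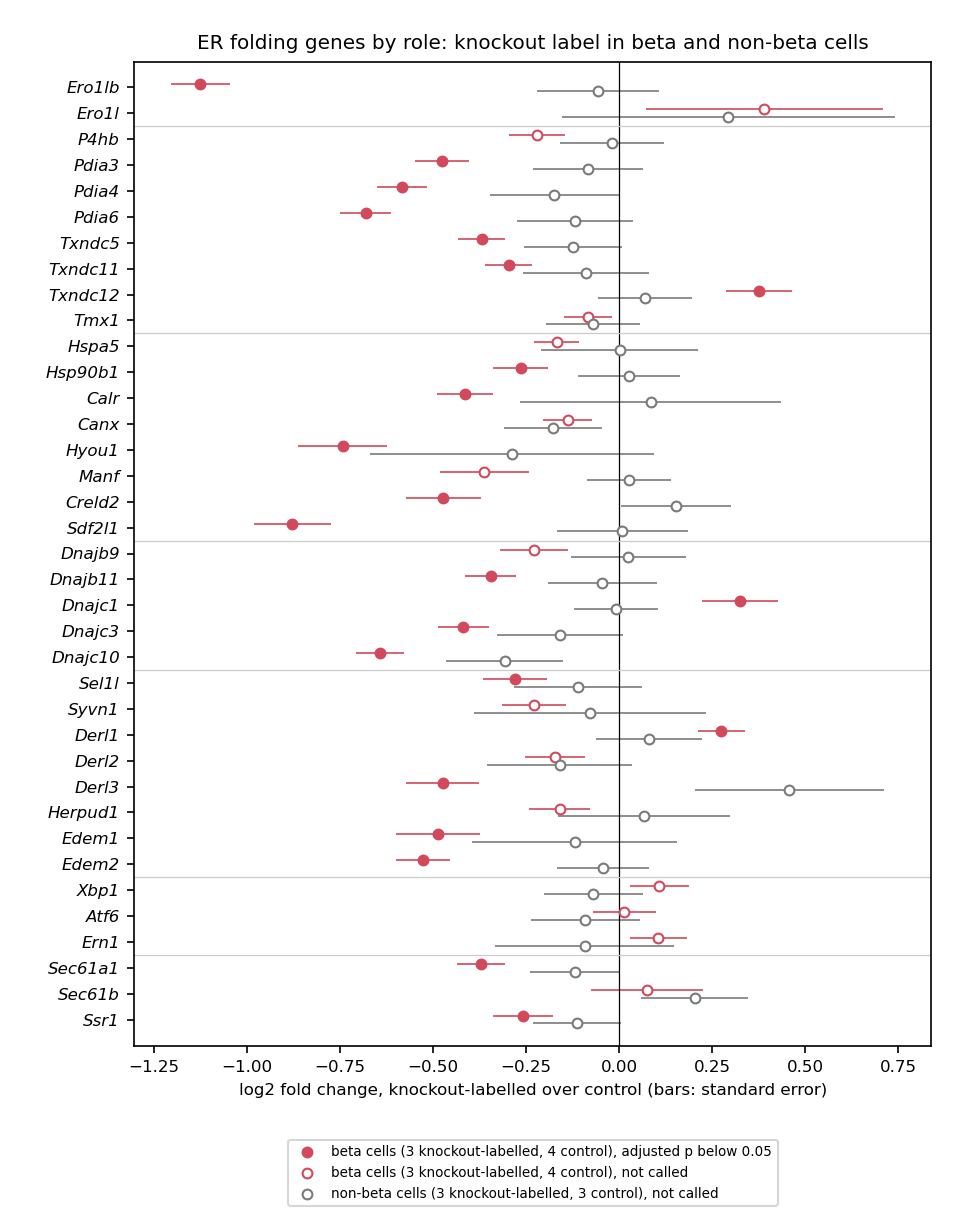
Log2 fold change of each of the 37 genes, knockout-labelled over control, with standard error bars, in beta cells (red) and non-beta cells (grey); filled points have an edgeR adjusted p below 0.05 and lines separate the 7 roles. In beta cells 20 points are filled to the left of 0 and 3 to the right, and no grey point is filled.

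Among the oxidases, Ero1lb, the ERO1 isoform known for its high level in the endocrine pancreas, showed the largest change of any member. The gene spans chr13:12565874-12611396 on the plus strand. Control beta libraries held 1350.5, 1421, 1180.3 and 1357 CPM, and those under the knockout label 597.6, 648.6 and 575.2 CPM. The groups lay far apart, with the highest knockout-labelled library below the lowest control. The fall was 2.18-fold, a log2 fold change of -1.13 (standard error 0.08, edgeR adjusted p = 1.55e-05). Relative to insulin, Ero1lb gave 4.90 to 5.97 counts per 1000 Ins1 and Ins2 counts in control beta libraries and 2.40, 3.21 and 4.31 in the knockout-labelled ones, so these ranges did not overlap either.

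Ero1l, the widely expressed isoform that is known to respond to hypoxia, varied most among the beta-cell replicates. Its values were 109.5, 151.4, 150.3 and 316.6 CPM in control beta libraries, against 309.3, 154.9 and 250.2 CPM under the knockout label. The groups overlapped because control replicate 4 was higher than every other beta library, and the log2 fold change of 0.39 was not called (standard error 0.32, edgeR adjusted p = 0.417). With the replicate number as a block, Ero1l was called higher (log2 fold change 0.76, edgeR adjusted p = 0.031). Control replicate 4 has no knockout-labelled library of its number, so the block takes it out of that comparison. Leaving out control replicate 4 gave 0.80 (edgeR adjusted p = 0.0307), and these fits are not separate support. Per kilobase of exon, Ero1lb made up 77.3 to 90.7 % of both oxidases in control beta libraries and 60.6 to 76.9 % in knockout-labelled ones. The sum of both, per kilobase, was 233.9 ± 24.9 CPM (SD, n = 4) in control and 136.3 ± 11.0 CPM (SD, n = 3) in knockout-labelled beta cells.

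**Figure D2:**
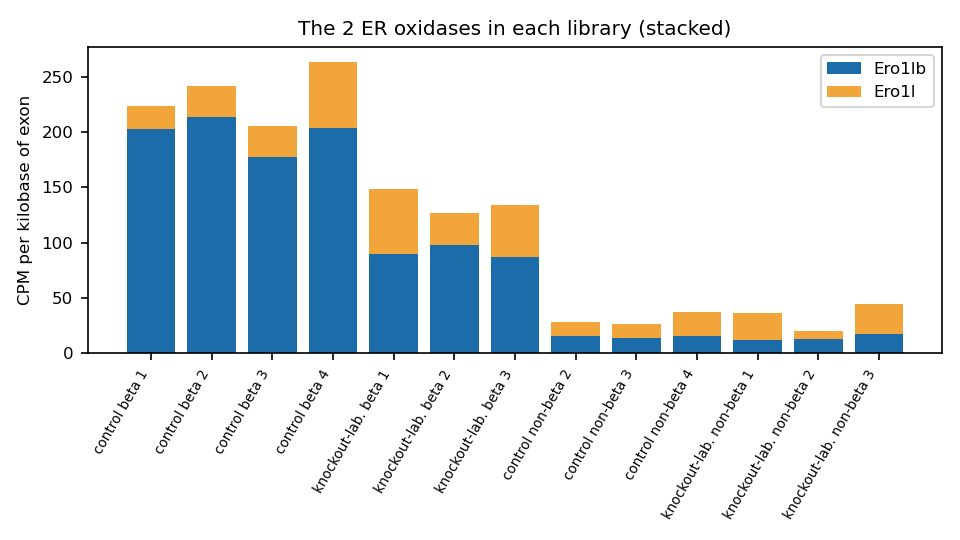
Level of Ero1lb (blue) and Ero1l (orange) in each of the 13 libraries as stacked bars, in CPM per kilobase of exon. The blue part shrinks from control to knockout-labelled beta cells, and in non-beta libraries the sum is 19.5 to 44.1 CPM per kilobase.

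Of the 8 isomerases and related genes, 5 fell, 1 rose and 2 were not called. Pdia6, known to act on proinsulin and on the sensor IRE1, stood at 1973, 1932, 1856 and 1752 CPM in control against 1201, 1188 and 1116 CPM under the knockout label. Its groups did not overlap, and the log2 fold change was -0.68 (standard error 0.07, edgeR adjusted p = 0.000106). Pdia4, an isomerase with several thioredoxin-like domains, stood at 740.7, 736.4, 728.3 and 714.1 CPM against 451.8, 506.3 and 499.3 CPM. This too was a gap with no overlap, a fall of 0.58 (edgeR adjusted p = 0.000236). Pdia3, the isomerase that works with calnexin and calreticulin on glycoproteins, fell by 0.48, from 2323 ± 162 to 1665 ± 76 CPM. Txndc5 fell by 0.37 and Txndc11 by 0.30; 11.9 % of the exon bases of Txndc5 are shared with other annotated genes on the opposite strand, and strand use in counting is not stated.

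P4hb, the classical disulfide isomerase, had a log2 fold change of -0.22 that was not called (edgeR adjusted p = 0.0625), although its 3 knockout-labelled values of 1957, 1624 and 1692 CPM lay below the 4 control values of 1999 to 2130 CPM. In 4 of 16 alternatives P4hb was called lower. The membrane-bound Tmx1 had a log2 fold change of -0.08 with overlapping groups. Txndc12 went the other way: 33.2 to 39.7 CPM in controls and 51.9, 47.5 and 42.6 CPM under the knockout label. All of its knockout-labelled libraries lay above the controls, a rise of 0.38 (edgeR adjusted p = 0.0146). Leaving out knockout-labelled replicate 1, its highest library, ended that call (edgeR adjusted p = 0.066). Summed over the 8 genes, the isomerases were at 7613 ± 256 CPM in control beta cells (SD, n = 4) and at 5605 ± 247 CPM in knockout-labelled ones (SD, n = 3).

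**Figure D3:**
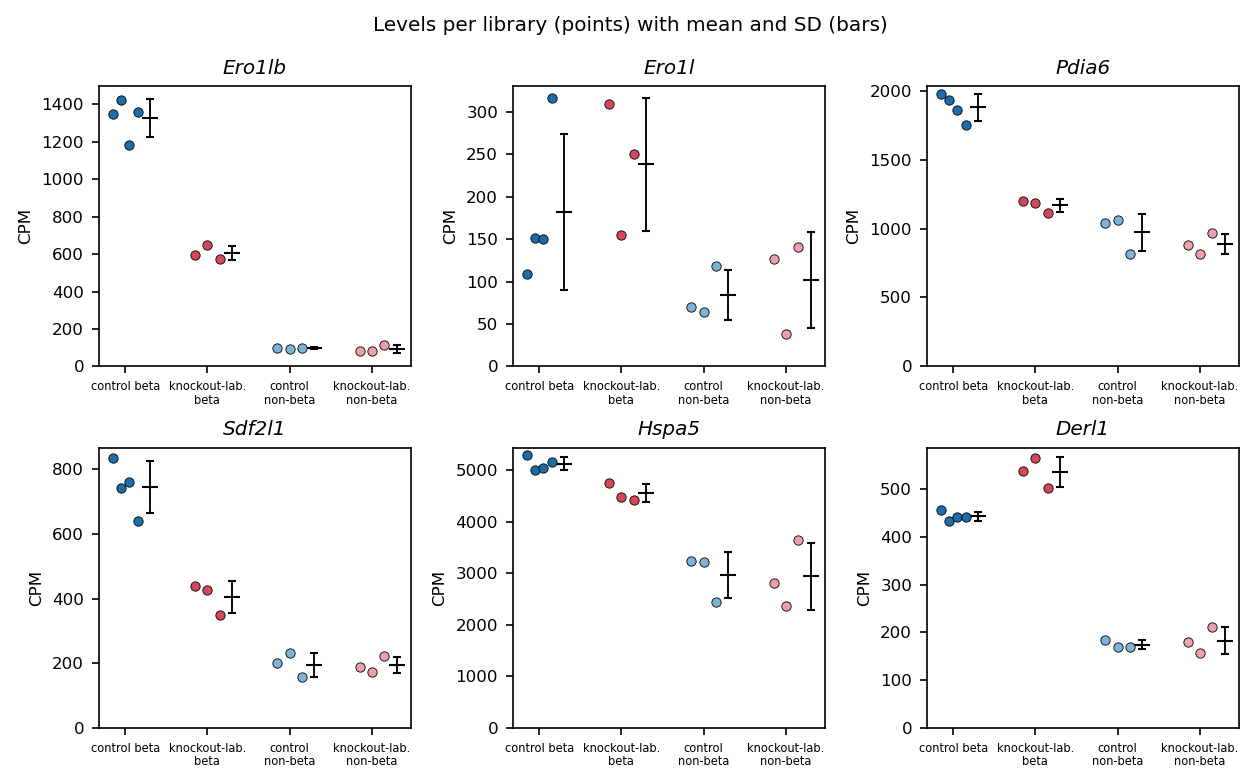
CPM of 6 members in every library (points, by group) with the mean and SD beside them (bars, n = 4 control beta and n = 3 in the other groups). Ero1lb, Pdia6 and Sdf2l1 separate the beta groups with knockout-labelled values lower, Derl1 separates them with knockout-labelled values higher, and Ero1l overlaps.

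Of the 8 chaperones and partners, 5 fell and none was called higher. Sdf2l1, which is known to work with BiP and J-domain proteins against aggregation, stood at 833.2, 742.4, 761.5 and 639.9 CPM in controls and at 438.2, 426.0 and 348.4 CPM under the knockout label. The groups were well apart, and the fall of 0.88 was the second largest among the members (standard error 0.10, edgeR adjusted p = 0.000307). Hyou1, a nucleotide exchange factor for BiP, stood at 227.9, 202.6, 208.6 and 252.4 CPM against 106.4, 145.8 and 146.1 CPM. Every knockout-labelled library was lower, and the fall was 0.74 (standard error 0.12, edgeR adjusted p = 0.00195). Creld2, an ER protein induced by stress, fell by 0.47, Calr, the soluble lectin chaperone, by 0.42 and Hsp90b1, the ER paralog of HSP90, by 0.26. Of the exon bases, 15.7 % of Hsp90b1, 9.3 % of Manf and 6.4 % of the co-chaperone Dnajc1 are shared with other annotated genes, which leaves their counts uncertain to that extent.

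The master chaperone Hspa5 (BiP) moved little. It stood at 5295, 5017, 5044 and 5162 CPM in controls against 4756, 4487 and 4425 CPM under the knockout label. These values did not overlap, yet the log2 fold change of -0.17 was not called (standard error 0.06, edgeR adjusted p = 0.0762). DESeq2 was the 1 of 16 alternatives that called it lower. Hspa5 had the highest level per kilobase of all 37 members in each of the 4 groups. Canx, the membrane-bound lectin chaperone, had a log2 fold change of -0.14 with overlapping groups. Manf, a secreted ER stress protein, had -0.36 and was not called (edgeR adjusted p = 0.0531). In 9 of 16 alternatives it was called lower. Among them were DESeq2 (DESeq2 adjusted p = 0.0134) and the replicate block (-0.44, edgeR adjusted p = 0.01).

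Of the 5 co-chaperones, which carry the J domain that stimulates BiP, 3 fell and 1 rose. Dnajc10, a J-domain reductase that cuts disulfides of proteins bound for degradation, stood at 182.5, 191.9, 188.0 and 187.2 CPM in controls and at 113.6, 122.6 and 123.2 CPM under the knockout label. The control values were tightly grouped and lay well above, and the fall was 0.64 (standard error 0.06, edgeR adjusted p = 0.000118). Dnajc3 fell by 0.42 and Dnajb11 by 0.35. Dnajb9, known as a repressor of IRE1, had a log2 fold change of -0.23 (edgeR adjusted p = 0.104) and was called lower with the replicate block (-0.28, edgeR adjusted p = 0.0245). Dnajc1 rose by 0.32 (edgeR adjusted p = 0.0458), but its groups overlapped and the call ended in 5 of the 7 fits that left out a library.

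Of the 8 degradation genes, 4 fell and 1 rose. Edem2, a lectin-like gene of glycoprotein disposal, stood at 273.5, 255.0, 264.1 and 239.6 CPM in controls and at 191.8, 173.0 and 171.5 CPM under the knockout label. Its groups did not overlap, and it fell by 0.53 (edgeR adjusted p = 0.00084). Its relative Edem1 fell by 0.49 (edgeR adjusted p = 0.0123) and Derl3, a derlin of secretory cells, by 0.47 (edgeR adjusted p = 0.00729). Sel1l, the adaptor of the ubiquitin ligase, fell by 0.28 (edgeR adjusted p = 0.0434). The ligase itself, Syvn1, had -0.23 and was not called, and neither were Derl2 (-0.17) and Herpud1 (-0.16). Derl1 went up in contrast to Derl3: it stood at 455.7, 433.8, 442.3 and 441.8 CPM in controls and at 538.9, 564.8 and 502.6 CPM under the knockout label, without overlap, a rise of 0.27 (edgeR adjusted p = 0.0132).

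None of the 3 sensors and regulators was called. Xbp1 stood at 594.0 to 685.5 CPM in controls and at 621.4 to 746.7 CPM under the knockout label, a log2 fold change of 0.11 (standard error 0.08, edgeR adjusted p = 0.363). Ern1, which encodes IRE1 and splices Xbp1, had 0.11 and Atf6 0.01, and both overlapped between groups. Gene counts hold no information on Xbp1 splicing. Of the 3 translocon genes, Sec61a1, the pore-forming subunit, fell by 0.37 (edgeR adjusted p = 0.0027) and Ssr1, of the associated TRAP complex, by 0.26 (edgeR adjusted p = 0.0463). The groups of Ssr1 overlapped, and its call ended in 8 of 16 alternatives. Sec61b, a small subunit, had 0.07 with overlapping groups. Of the exon bases of Sec61a1, 8.2 % are shared with another annotated gene.

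Read by promoter, 7 of the 10 members with an ERSE were called lower and none higher, with a median log2 fold change of -0.42. Of the 22 members with a window but no ERSE, 11 were called lower and 2 higher, with a median of -0.24. This split is a description, and the difference between the sets was not tested. Of all tested genes, 9.97 % were called lower and 10.1 % higher. The set without an ERSE holds Dnajb11 and Herpud1, with an ERSE-II, and Txndc5 and Txndc11, with the XBP1-type element. All of these except Herpud1 were among its lower calls. The ERSE genes ran from Ero1lb at -1.13 to Canx at -0.14, and Sdf2l1, at -0.88, had no ERSE in its window.

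**Figure D4:**
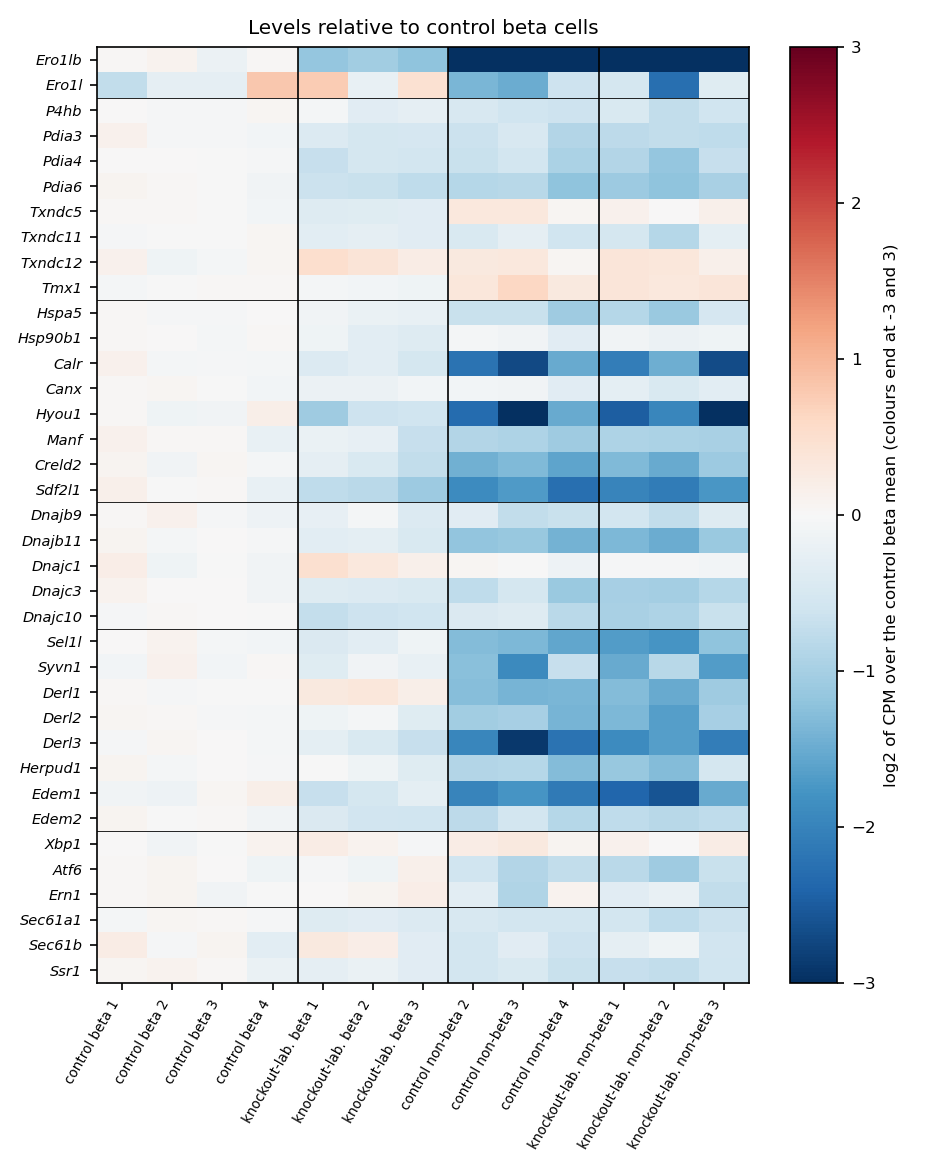
Log2 of the CPM in each library over the mean of control beta cells, for the 37 genes in order of role (horizontal lines) and 13 libraries in 4 groups (vertical lines). Blue marks lower values: it runs through most isomerases, chaperones and co-chaperones in knockout-labelled beta cells and through the degradation genes in non-beta cells, while Txndc5, Txndc12, Tmx1 and Xbp1 are near or above control beta cells in most non-beta libraries.

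The other genes of the pathway were counted in 10 lists in the same beta-cell comparison. Of 20 genes of N-glycosylation and glycoprotein quality control, 9 fell and 2 rose. Uggt1, the folding sensor that re-glucosylates misfolded glycoproteins, fell by 0.63 (edgeR adjusted p = 0.000471), from 361.7 ± 20.0 to 232.9 ± 19.8 CPM, and Rpn1, of the oligosaccharyl transferase, fell by 0.40, while the paralog Uggt2, with levels of at most 37.2 CPM in beta libraries, rose by 0.99. Of 24 other ER chaperones and proline isomerases 6 fell and none was called higher, among them Fkbp9 (-0.72), Fkbp11 (-0.70) and Hspa13 (-0.50). Of 28 genes of ER export and coats 9 fell and none was called higher, with Sec23b at -0.47 and Sec16a at -0.46. The shares called lower, 45, 25 and 32.1 % in that order, stand beside the 9.97 % of all tested genes called lower.

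Of the 32 other degradation genes 3 were higher and 3 lower, where Edem3 had -0.51 and Rhbdd1 0.42. Of 11 other genes of the disulfide isomerase family 2 fell and 1 rose, including Erp44 (-0.42), which retains ERO1 proteins in the ER. Of 9 other thiol oxidation genes 2 fell, Vkorc1l1 (-0.37) and Qsox1 (-0.22), and 1 rose, Gfer (0.42). Of 33 targeting and translocation genes 7 fell, such as Spcs3 (-0.56) of the signal peptidase, and 2 rose, such as Ccdc47 (0.82). Of 11 ER calcium genes 2 fell, the calcium pump Atp2a3 (-0.73) and the calcium channel Itpr1 (-0.84). In the order given, the shares called lower were 9.4, 18.2, 22.2, 21.2 and 18.2 %, against 9.97 % of all tested genes. Those called higher were 9.4, 9.09, 11.1, 6.06 and 0 %, against 10.1 %.

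Other sensors and regulators moved both ways, with 8 lower and 5 higher of 22. That is 36.4 % lower and 22.7 % higher, against 9.97 % and 10.1 % of all tested genes. Ddit3, which encodes CHOP of the PERK branch, stood at 297.0, 257.0, 291.0 and 286.4 CPM in controls and at 541.0, 511.0 and 412.1 CPM under the knockout label. It rose without overlap by 0.79 (standard error 0.09, edgeR adjusted p = 0.000317). Bhlha15, a secretory-cell transcription factor known as an XBP1 target, fell by 0.50 (edgeR adjusted p = 0.00204), and Tmbim6, an ER membrane protein, rose by 0.47 (edgeR adjusted p = 0.00154). Of 17 cargo and hormone-processing genes 9 fell, 52.9 %, and 1 rose, 5.88 %, beside the same background. The prohormone convertase Pcsk1 was at -0.91 (edgeR adjusted p = 0.000123). Ins1 fell by 0.73 (edgeR adjusted p = 0.0135), and Ins2, at -0.32, was not called (edgeR adjusted p = 0.182).

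The second comparison asks whether the label made a difference in non-beta cells. No member was called, and edgeR called 0 of 18908 tested genes, 0 %, with 821 at an unadjusted p below 0.05, while DESeq2 called 25 genes and no member. No member had an unadjusted p below 0.05 by edgeR either. The median log2 fold change of the members was -0.07. The groups did not overlap for 1 member, Sec61a1, lower under the knockout label, where 5.71 % of tested genes were so and 4.02 % were so in the higher direction. Ero1lb stood at 99.9, 91.8 and 100.1 CPM in control and at 79.9, 82.3 and 115.3 CPM under the knockout label, where the highest value was in the library with the most beta-cell RNA. Standard errors in non-beta and beta cells were 0.16 and 0.07 for Pdia6, 0.18 and 0.10 for Sdf2l1, and 0.38 and 0.12 for Hyou1.

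The 6 non-beta libraries differed in a trend with GC content, and some members were lowest or highest in both libraries with the most negative trend. The correlation over 19912 genes between transcript GC and a library's log2 deviation from its group mean was between -0.047 and 0.037 in the 7 beta libraries. In control non-beta replicates 2, 3 and 4 it was -0.0045, -0.241 and 0.239, and in knockout-labelled non-beta replicates 1, 2 and 3 it was 0.142, 0.232 and -0.294. It is a correlation over genes, which are not independent, and describes these libraries only. Calr stood at 414.3, 293.1 and 666.8 CPM in the controls and at 457.6, 693.3 and 298.0 CPM under the knockout label, so both libraries with the most negative trend, control replicate 3 and knockout-labelled replicate 3, held the lowest values. Hyou1, at 45.0, 28.1, 78.2, 40.4, 57.3 and 25.5 CPM in the same order, and Syvn1 and Ern1 were likewise low in those libraries. Edem1 was highest there, at 93.1 and 110.5 CPM against 52.1 to 79.4 CPM in the other 4, and Herpud1, at 489.9 and 616.2 CPM, stood above the other 4 at 358.4 to 480.3 CPM. Of the 37 members, 4 had their lowest 2 values in those libraries, 7 had their highest 2 values there, and 26 had neither. The shares over all genes were not computed, so these counts show nothing particular to the members. The 6 named here were chosen after their values were seen. By transcript GC, Calr, Hyou1, Syvn1 and Ern1, lowest there, were at percentiles 51.1, 63.3, 84.7 and 54.4 of all genes. Edem1 and Herpud1, highest there, were at percentiles 30.6 and 66.8. The coefficient of variation of Calr was 41.6 and 41.2 % in the control and knockout-labelled non-beta groups, against 6.87 and 6.55 % in beta cells. The sum of 10 acinar markers also differed between these libraries, at 3189, 3406 and 8478 CPM in the controls and 8736, 6224 and 1647 CPM under the knockout label. Beta-cell RNA differed too. Ins2 took 0.689 % of counts in control replicate 3 and 2.46 % in knockout-labelled replicate 3. The other 4 non-beta libraries held 0.159 to 0.322 %. The part of GC trend, acinar RNA or beta-cell RNA in these values was not tested. With GC offsets no member was called in the non-beta comparison.

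**Figure D5:**
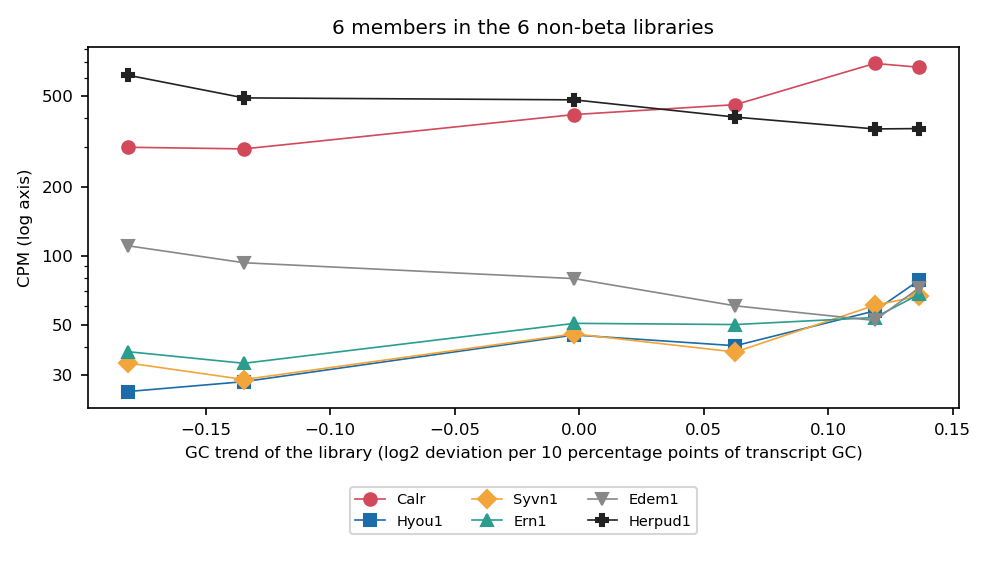
CPM (log axis) of 6 members in the 6 non-beta libraries, placed by the GC trend of each library in log2 units per 10 percentage points of transcript GC, with lines joining the libraries of a gene. Calr, Hyou1, Syvn1 and Ern1 are lowest in both libraries at the left, and Edem1 and Herpud1 are highest there.

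The difference between both effects was tested as an interaction over all 13 libraries. Ero1lb was the 1 member called, 2.70 % of members against 0.316 % of 19942 genes called lower 0.612 % called higher and 0.928 % called in either direction. Its effect in beta cells was lower than that in non-beta cells by 1.06 on the log2 scale (standard error 0.18, edgeR adjusted p = 0.0165). Without both replicate 3 libraries of the knockout label, which held RNA of the other fraction, the difference was -0.83 (edgeR adjusted p = 0.0216). The call ended with the replicate block (-1.03, edgeR adjusted p = 0.088), without knockout-labelled beta replicate 1 (-1.05, edgeR adjusted p = 0.0512) and without control non-beta replicate 2 (-1.08, edgeR adjusted p = 0.0522). For Sdf2l1 the difference was -0.88 (edgeR adjusted p = 0.076), for Derl3 -0.92 (edgeR adjusted p = 0.155) and for Pdia6 -0.55 (edgeR adjusted p = 0.139). DESeq2 called Sdf2l1, Derl3, Pdia6, Creld2 and Edem2 lower as well. Sdf2l1 was also called without the filter on low counts, and Sdf2l1 and Edem2 without control non-beta replicate 3. For the members not called in the main fit, an effect confined to beta cells is thus not shown.

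The third comparison sets control beta cells against control non-beta cells, in which alpha-cell markers had the highest of the marker sums. Here 29 of 37 members were higher in beta cells, 1 was lower and 7 were not called, that is 78.4 % higher against 24.8 % of 19014 tested genes, with 28.6 % called lower and 53.5 % called in either direction. The median log2 difference of the members was 0.72, beside -0.02 over all genes. All beta libraries lay above all non-beta libraries for 29 members, against 26.9 % of tested genes, and below for 2, against 29.6 %. This comparison shares its control beta libraries with the first. Ero1lb differed most: its 4 beta libraries, at 1180.3 to 1421 CPM, lay far above the 3 non-beta libraries at 91.8 to 100.1 CPM, 13.6-fold or 3.76 on the log2 scale (standard error 0.11, edgeR adjusted p = 2.6e-08).

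All 8 degradation genes were higher in beta cells. Derl3 led with 2.29, from 3.96 to 7.63 CPM in non-beta libraries to 28.5 to 30.8 CPM in beta libraries, followed by Edem1 (1.94), Sel1l (1.40), Derl1 (1.34) and Syvn1 (1.20). Among chaperones, Hyou1 (2.14), Calr (2.06), Sdf2l1 (1.92) and Creld2 (1.43) stood out, whereas Hsp90b1 (0.15) and Canx (0.16) were not called. The isomerases differed less, with Pdia6 at 0.94, Pdia4 at 0.71, Pdia3 at 0.66 and P4hb at 0.56. Tmx1 was the 1 member lower in beta cells, at 98.8 to 106.7 CPM against 126.8 to 159.2 CPM (-0.43, edgeR adjusted p = 0.0034). Xbp1 (-0.21) and Ern1 (0.31) were not called, and Atf6 was higher (0.72).

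Under the knockout label, beta and non-beta cells differed for 23 members: 21 were higher in beta cells, 2 lower and 14 not called. That is 56.8 % higher, against 19.1 % of 18775 tested genes, with 23.5 % called lower and 42.6 % called in either direction. Of the 8 isomerases, only Pdia6 was called higher, at 0.36 (edgeR adjusted p = 0.0428), a call that ended with the replicate block, with RLE scaling, with either other filter and in 5 of 6 fits that left out 1 library. Of this role, Txndc5 (-0.51) and Tmx1 (-0.47) were lower. All beta libraries lay above all non-beta libraries for 27 members, against 27.9 % of tested genes, and below for 2, against 27.6 %. Of the 8 degradation genes 7 were called higher, with Derl1 at 1.51 and Edem2 not called (0.21). Ero1lb was 6.37-fold higher, 2.67 on the log2 scale (edgeR adjusted p = 2.65e-05). Whether these differences changed between the genotype labels is the interaction above, which called Ero1lb alone in its main fit.

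Ranked by mean CPM per kilobase of exon among the 37 members, Ero1lb was at rank 11 in control beta cells, 17 in knockout-labelled beta cells and 27 in both non-beta groups. Its mean level per kilobase was 199.5, 91.3, 14.6 and 13.9 CPM in these 4 groups, and the last 2 did not differ beyond their spread. Hspa5, P4hb and Pdia3 held the first 3 ranks in every group. The order of P4hb and Pdia3 was not the same in all groups, with 717.4 ± 21.2 against 740.0 ± 51.7 CPM per kilobase in control beta cells, within their SD (n = 4).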

How the data were processed

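RNA of sorted islet cells was made into libraries with SMART-Seq and Nextera chemistry and read in pairs of 100 bases, per the labels' protocols. The submitters' processing notes name FastQC, STAR, edgeR and the build GRCm38.p6; versions, the counting program and its strand setting are not given in the sources used here. The authors deposited raw counts per gene, with no normalisation, and tables of pairwise log2 fold changes with p-values and false discovery rates, per the file headers.

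The 37 members and the other gene lists were chosen with earlier results of these data known, so their counts are not independent support. Members are all named; of each other list names were drawn from the 3 genes with the smallest adjusted p in the beta-cell comparison among those that reach 5 CPM on average in some group. Counts were tested in R 4.3.3 with edgeR 4.0.16 (filterByExpr, TMM scaling, quasi-likelihood F test, Benjamini-Hochberg threshold 0.05 over all genes tested), with only the libraries of a comparison in its fit and all 13 for the interaction. Standard errors were derived from the F statistic. Levels are CPM with TMM sizes of all 13 libraries, and levels per kilobase divide by the deposited exon length. The pipeline was also run on simulated counts for some of the comparisons. That run had no GC trend and no mixing of cell types, so it does not check the results for these. DESeq2 1.42.0, RLE scaling, other filters, scaling without hormone genes, GC offsets and leaving out libraries were alternatives; the GC offsets were added after seeing the data.

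Same-numbered control and knockout-labelled beta libraries deviated together from their group means (correlations over genes of 0.122, 0.136 and 0.208). A differently numbered pair, control replicate 1 and knockout-labelled replicate 2, gave 0.127. No label says that the numbers pair libraries, so the main fits used no block and their p-values take no account of such pairing. The replicate block was an alternative. Coordinates and shared exon bases come from GENCODE M21 on GRCm38, and promoter windows from RefSeq. Totals ran from 28.7 to 36.8 M counts per library.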

Additional observations from a re-analysis of the deposited data

Results flagged for a closer look

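Calr in control beta replicate 1 stood apart from the other 3 control beta libraries, at 2110 CPM (2109.5) against 1837.0 to 1872.3 CPM, with a gap of 0.871 of the group's range. It was the 1 value that did so among the 37 members screened in this group of 4 libraries, where chance marks about 1 in 20. All 3 knockout-labelled beta libraries, at 1338 to 1526 CPM, lay below each of the 4 control values, and the call of Calr held without that library.

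The effect of the knockout label on Ero1lb differed between beta and non-beta cells by -1.056 on the log2 scale in the interaction test over 13 libraries (edgeR adjusted p = 0.0165). The effect itself was -1.13 in beta cells, where all 3 knockout-labelled libraries were lower than all 4 controls, and -0.06 in non-beta cells, where the groups overlapped. Knockout-labelled non-beta replicate 3, with 2.46 % Ins2, had the highest non-beta Ero1lb, and without it the difference was -0.87 (edgeR adjusted p = 0.00833). The call ended with the replicate block, at an edgeR adjusted p = 0.088. It also ended when beta replicate 1 of the knockout-labelled group (0.0512) or non-beta replicate 2 of the controls (0.0522) was left out.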

How the results depend on the processing

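In beta cells, 11 of the 23 called members kept their call under all 16 alternatives, and 6 (Txndc11, Calr, Hyou1, Dnajb11, Derl3 and Edem1) lost it only with all 13 libraries in 1 fit, which gave 1 member higher, 11 lower and 1671 genes in all; the cause was not tested. DESeq2 called 26 members. GC offsets ended the calls of Sel1l and Ssr1 and added P4hb. The replicate block with GC offsets ended that of Hsp90b1 and added Ero1l, Manf and Syvn1. Leaving out 1 library gave 1 to 3 members higher, 17 to 21 lower and 1990 to 4117 genes in all, the fewest without knockout-labelled replicate 1. The replicate block added Ero1l, Manf and Dnajb9, lost none and called 3544 genes. It also sets control replicate 4 aside, which has no knockout-labelled library of its number. Leaving out that library without a block added Ero1l and Manf and lost Dnajc1. The uncalled Atf6 turned to -0.032 with the replicate block, -0.011 with block and GC offsets, and ran from -0.087 to 0.075 when 1 library was left out. Sec61b turned to -0.039 and -0.072, and ran from -0.05 to 0.232.

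In non-beta cells members stayed at 0 under every alternative. All genes called were 25 with DESeq2, 1 without the filter, 12 with the replicate block, 3 with all 13 libraries and 0 when any library was left out. Hyou1 turned to 0.118 with the block; with 1 library left out it ran from -0.599 to 0.168, and Ero1l from -0.033 to 0.689.

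Between control fractions, members lower were 3 with DESeq2, 2 with RLE, 4 with a stricter filter of 5 CPM, and 2 with hormone genes left out of scaling or all 13 libraries. Leaving out 1 library gave 28 to 30 higher, 1 to 4 lower and 8716 to 10880 genes. Dnajc1, near 0, turned to -0.002 (DESeq2 and RLE), -0.016 (stricter filter), and -0.053 (block), and ran from -0.053 to 0.073 with 1 library left out. Between knockout-labelled fractions the stricter filter called 5319 genes, and leaving out 1 library gave 14 to 24 members higher, 2 lower and 6277 to 8752 genes. Txndc12 turned to -0.016 (stricter filter) and ran from -0.024 to 0.101, and Xbp1 to 0.055 (without both replicate 3 libraries).

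For the interaction, members lower were 6 with DESeq2, 2 without the filter and 0 with the replicate block, and genes in all 519 and 50 with DESeq2 and the block. Leaving out 1 library gave 0 to 3 lower, 0 higher and 62 to 285 genes. Outside the beta-cell comparison, same-numbered libraries did not all correlate above 0.1: control fractions gave 0.048, 0.056 and 0.193, knockout-labelled fractions 0.084, 0.086 and 0.093, and non-beta groups -0.06 and 0.263. In the knockout-labelled fractions every library correlated best with its own number, a hint from the data and not from the design. In the annotation 5 members share over 5 % of their exon bases with another gene, and all 37 passed the filter on low counts in every comparison.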

Other observations

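In the authors' deposited tables, 21 members were lower and 3 higher in the knockout-labelled over control beta-cell comparison at a false discovery rate below 0.05. The authors' deposited table for the non-beta comparison lists 0 members below that rate.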
